A study of Homo sapiens with 28 samples.

Results

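Libraries from s4U-labelled cells were compared with libraries from unlabelled cells, all made under drop-out handling, and the genes whose exonic read count changed with the label in 2 alignments of the same reads were examined. The comparison used 9 of the 28 samples of the series: 6 labelled and 3 unlabelled. Genes were counted as members when edgeR's quasi-likelihood test gave an adjusted p under 0.05, with the same sign, on the HISAT-3N counts and on the STAR counts, both at the settings code D. This left 17 genes of the 8954 tested in both alignments. All samples were HEK 293T cells, an established human embryonic kidney line, of WT genotype. Labelled cells received 100 µM s4U for 2 h, and unlabelled controls received none. RNA was converted by 1 of 3 chemistries: NaIO4 with TFEA at pH 5.2 (TL), iodoacetamide (SLAM) or OsO4 with NH3 (TUC). Each chemistry had 2 labelled libraries and 1 unlabelled library. The same 3 chemistries were also run under improved handling, with 9 further libraries. What the handlings involved is not described beyond their names and their stated purpose, and the labels do not say whether replicates came from separate cultures. The p-values therefore measure the spread between these samples, which may be technical, and the unlabelled libraries have no replicate within a chemistry.

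4-Thiouridine (s4U) is a uridine analog that cells build into RNA made during the labelling period. After extraction, a chemical treatment changes the s4U so that reverse transcriptase pairs it differently, and new RNA is read as carrying T-to-C mismatches. A transcript with a short half-life is replaced quickly, so a large share of its reads carries mismatches after a short label, while a stable transcript has few. Drop-out is the loss of s4U-containing RNA or of mismatch-containing reads; it is measured by setting labelled against unlabelled counts of the same gene.

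The drop-out libraries held 1935777 to 5813077 HISAT-3N reads, of which 836654 to 2735236 were exonic gene reads. Between 32.7% and 41.5% of the reads were not assigned to a gene. The share of exonic reads carrying 1 or more T-to-C mismatches, the converted share, ran from 2.56% to 3.28% in unlabelled and from 10.4% to 17.4% in labelled libraries. Counts are relative to each library's total, so less RNA per cell and fewer cells cannot be told apart from them. The count table names genes by Ensembl identifier and no table used here pairs these with symbols. For that reason 2 risen and 2 fallen genes are given by identifier and the others by chromosome, and HEK 293T markers could not be checked in the counts.

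With s4U, 8 genes rose and 9 fell in both alignments. The called share was 0.19% of the 8954 genes tested in both, with 0.0893% higher and 0.101% lower. On HISAT-3N counts 30 of 9113 genes passed (0.329%), 20 higher (0.219%) and 10 lower (0.11%). On STAR counts 36 of 9572 passed (0.376%), 13 higher (0.136%) and 23 lower (0.24%). On HISAT-3N counts the log2 changes ran from 0.58 to 1.78 for the risen genes and from -1.004 to -0.67 for the fallen ones. The 17 genes lay on 11 chromosomes, and 14 of them averaged 100 or more exonic reads across the 9 libraries in both alignments. Over all genes tested, the median log2 change was 0.02 in either alignment, with quartiles of -0.22 and 0.23 on HISAT-3N counts. The 2 alignments use the same reads and are not independent measurements.

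**Figure D1:**
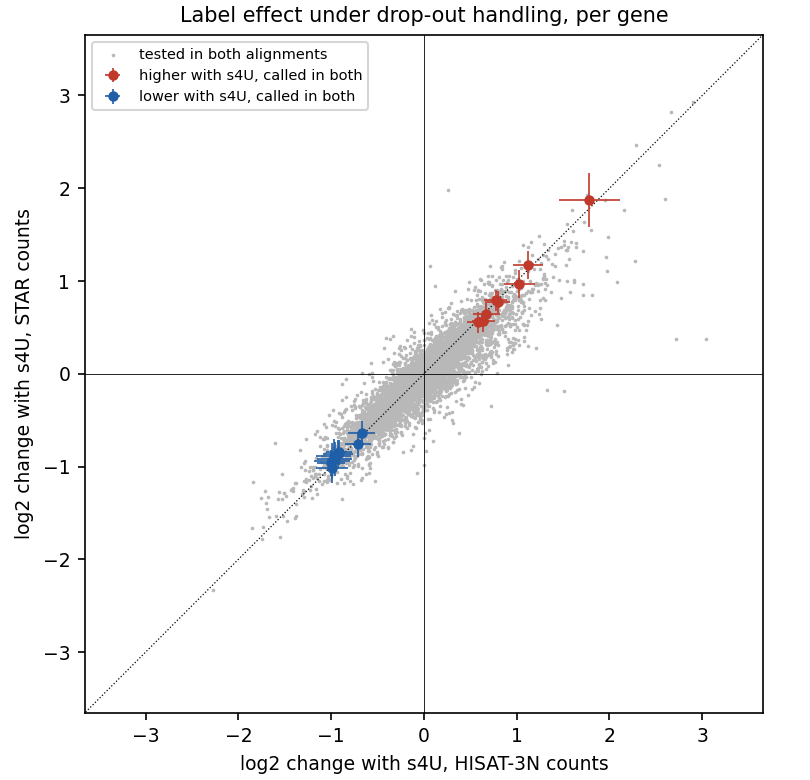
Log2 change with s4U under drop-out handling on HISAT-3N counts (x axis) against STAR counts (y axis). Grey points are the 8954 genes tested in both alignments, and coloured points with SE bars are the 8 genes that rose and the 9 that fell in both. The coloured points lie near the dotted line of equal change, from -1.004 to 1.78 on the x axis.

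ENSG00000109971, on chromosome 11, had the largest rise among the 14 of these 17 genes that averaged at least 100 reads. Its scaled HISAT-3N read counts (CPM, counts per 1000000 reads after TMM scaling) in the unlabelled libraries were 211 (TL), 169 (SLAM) and 154 (TUC). In labelled replicates 1 and 2 they were 340 and 463 with TL, 325 and 441 with SLAM, and 328 and 422 with TUC. All 6 labelled values lay above all 3 unlabelled ones. The mean rose from 178 ± 29.5 (SD, n = 3) to 387 ± 62.3 CPM (SD, n = 6). The log2 change was 1.12 ± 0.16 (SE; edgeR adjusted p = 0.000932) on HISAT-3N counts and 1.17 ± 0.16 (edgeR adjusted p = 0.00629) on STAR counts. Without any of the 3 unlabelled libraries it was no longer called in both alignments; the log2 change then stayed between 1.05 and 1.25, with edgeR adjusted p-values of up to 0.355.

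ENSG00000149503, also on chromosome 11, had unlabelled CPM of 165 (TL), 114 (SLAM) and 126 (TUC). The labelled values were 346 and 241 with TL, 217 and 311 with SLAM, and 281 and 239 with TUC. The groups did not overlap, and replicate 2 was the lower one with TL and TUC but the higher one with SLAM. The log2 change was 1.03 ± 0.17 (SE; edgeR adjusted p = 0.00412) on HISAT-3N counts and 0.97 ± 0.15 (edgeR adjusted p = 0.00753) on STAR counts. Here too the call was lost without any of the 3 unlabelled libraries, at log2 changes of 0.91 to 1.14 and edgeR adjusted p-values of up to 0.355. With exonic and intronic reads counted together it missed the threshold on STAR counts (edgeR adjusted p = 0.0589).

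ENSG00000113739, on chromosome 5, fell. Its unlabelled CPM were 228 (TL), 271 (SLAM) and 219 (TUC). The labelled values were 92.8 and 110 with TL, 120 and 114 with SLAM, and 128 and 163 with TUC. Every labelled library was below every unlabelled one, and the TUC libraries were the least reduced. The log2 change was -1.004 ± 0.15 (SE; edgeR adjusted p = 0.00203) on HISAT-3N counts and -0.97 ± 0.14 (edgeR adjusted p = 0.00753) on STAR counts. The call was lost without the unlabelled TL or the unlabelled SLAM library, at log2 changes of -0.91 to -0.87 and edgeR adjusted p-values of up to 0.355. With intronic reads added, the edgeR adjusted p was 0.0740 on HISAT-3N and 0.0931 on STAR counts.

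ENSG00000157514, on chromosome X, had the most reads of the fallen genes, with a mean of 616 per library. Its unlabelled CPM were close together, at 729 (TL), 762 (SLAM) and 748 (TUC). The labelled values were 246 and 465 with TL, 253 and 427 with SLAM, and 317 and 554 with TUC. Replicate 1 was the lower labelled library in each chemistry, and both replicates were below all unlabelled libraries. The log2 change was -0.99 ± 0.19 (SE; edgeR adjusted p = 0.0245) on HISAT-3N counts and -0.94 ± 0.20 (edgeR adjusted p = 0.0420) on STAR counts. Its call in both alignments was lost in 6 of the 9 fits that left out 1 library: without each unlabelled library and without each labelled replicate 1. The log2 change there was between -1.09 and -0.83, with edgeR adjusted p-values of up to 0.615. It also missed the threshold with intronic reads added (edgeR adjusted p = 0.143 and 0.168) and, on STAR counts, with RLE factors (0.0529) and with all 18 libraries in the fit (0.0558).

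The other 6 risen genes had log2 changes of 0.58 to 1.78 on HISAT-3N counts. The largest, on chromosome 6, rested on a mean of 50.7 reads per library, with 10 to 24 reads in the unlabelled libraries and 38 to 130 in the labelled ones. Those on chromosomes 19, 9, 9, 16 and 22 rose by 0.80, 0.77, 0.67, 0.64 and 0.58. The other 7 fallen genes changed by -0.99 to -0.67. They lay on chromosomes 1, 19, 1, 2, 6, 17 and 1, in order from the largest to the smallest mean fall over both alignments. Of the 17 genes, 0 kept the call in both alignments in all 9 fits that left out 1 library, and the number of fits that kept it ran from 1 to 7. The risen genes on chromosomes 22 and 16 kept it in 1 of 9, without SLAM labelled replicate 2. The risen gene on chromosome 9 at 0.67 and the fallen gene on chromosome 1 at -0.67 kept it in 2 of 9. In all 17 genes the 6 labelled ratios had the same sign in both alignments and the labelled and unlabelled CPM did not overlap. The genes were chosen on these libraries, so this is a description; over all genes tested, such a lack of overlap was found in 4.11%, 1.89% above and 2.22% below. Just inside the threshold stood a fallen gene on chromosome 1 with a larger adjusted p of 0.0449 (log2 changes of -0.67 and -0.64); just outside stood fallen genes on chromosomes 20 and 8 at 0.0518. At an adjusted p under 0.1 in both alignments, 37 genes passed, 15 higher and 22 lower.

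**Figure D2:**
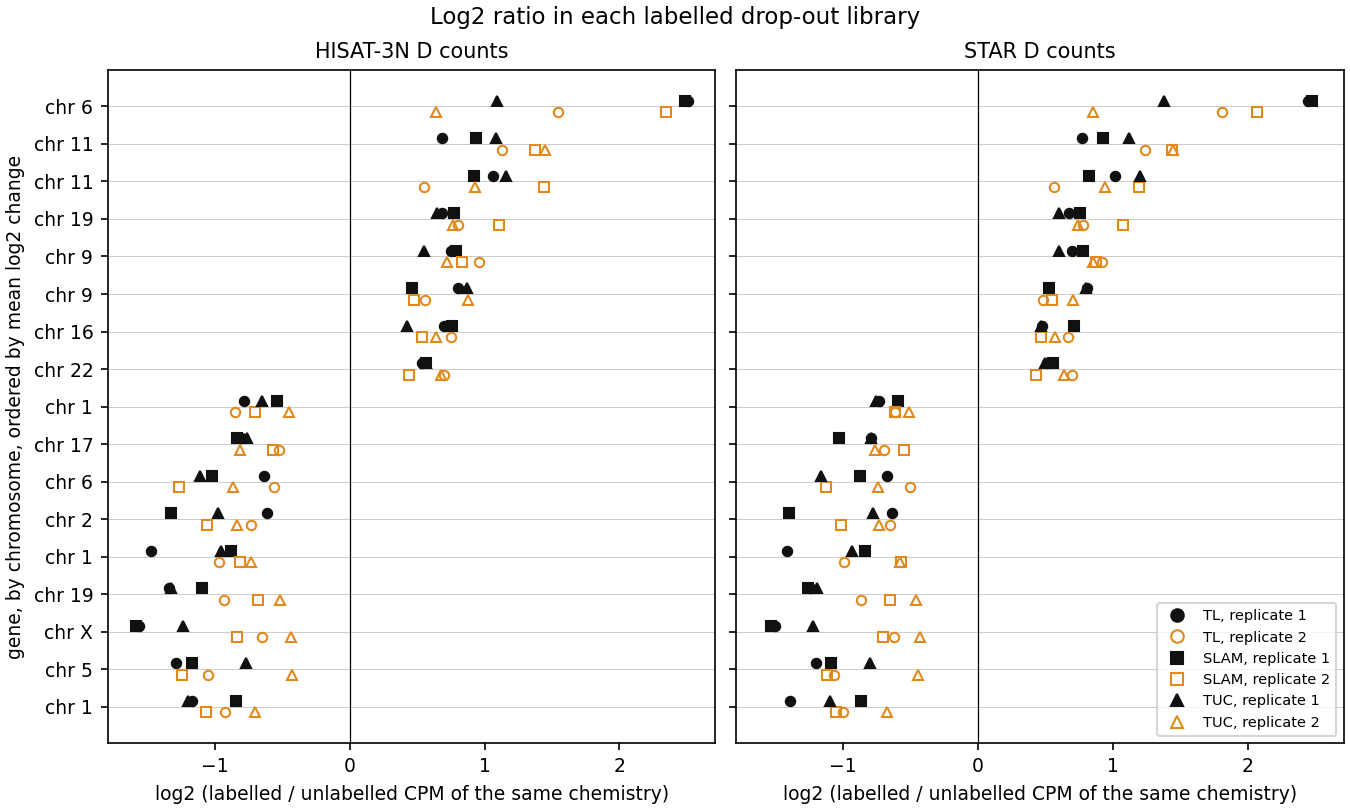
Log2 ratio of each labelled drop-out library to the unlabelled library of its chemistry (x axis) for the 17 genes (y axis, by chromosome), on HISAT-3N counts (left) and STAR counts (right). Symbols mark the chemistry and filled or open symbols the replicate number. No ratio crosses 0, and for most fallen genes, such as the one on chromosome X, filled symbols lie further left.

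The fallen genes had a high converted share. Their mean share in labelled drop-out libraries had a median of 54.1% (21.4% to 68.9%), against 14.2% (6.13% to 21.2%) for the risen genes and 14.5% for the 3971 genes with at least 50 exonic reads in every labelled improved-handling library. These shares are from HISAT-3N reads; on STAR reads the medians of the fallen and risen genes were 54.9% and 11.9%. In the unlabelled drop-out libraries the medians were 2.20% and 2.51%. In the improved-handling libraries, which took no part in choosing the genes, the fallen genes had a median of 51.2% (22.8% to 74.8%), the risen genes 25.5% (14.95% to 43.0%) and all 3971 genes 26.4%. These genes were ranked by the converted share of labelled minus that of unlabelled improved-handling libraries and divided into 5 quintiles. Of the 6 fallen genes with enough reads, 5 were in the quintile with the highest share and 1 in quintile 2. Of the 6 risen genes with enough reads, 3 were in quintile 2, 1 in quintile 3 and 2 in quintile 4. ENSG00000157514 was the fallen gene with the lowest share under improved handling (22.8% ± 3.45, SD, n = 6), while ENSG00000113739 stood at 58.3% ± 3.51 (SD, n = 6). The mean number of T positions per read was 28.2 in the median for the risen genes and 32.2 for the fallen ones, below the 35.1 for all 3971 genes.

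Among all 3971 genes, the median log2 change on HISAT-3N counts went from 0.12 in the quintile with the lowest converted share to -0.01 in the one with the highest, and on STAR counts from 0.15 to -0.07. Under improved handling the same quintiles, which were set from those libraries, went from 0.13 to -0.08 on HISAT-3N and from 0.20 to -0.13 on STAR counts, so the trend was present under both handlings. The labelled drop-out libraries differed in it by replicate number. On HISAT-3N counts the difference between the highest and lowest quintile was 0.04 (TL), 0.02 (SLAM) and 0.22 (TUC) in replicates 1. In replicates 2 it was -0.47, -0.50 and -0.33. Genes with a high converted share were thus lower than genes with a low share in all 3 replicates 2, and in none of the 3 replicates 1 on these counts. On STAR counts the differences in replicates 1 were -0.03, -0.07 and 0.11, and in replicates 2 -0.51, -0.53 and -0.40. The converted share of all exonic reads was higher in replicates 1 (15.1%, 15.9% and 17.4% for TL, SLAM and TUC) than in replicates 2 (10.4%, 11.1% and 12.5%). An exact two-sided sign-flip permutation test over the 3 chemistries cannot go below p = 0.25, and gave that value in either alignment.

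**Figure D3:**
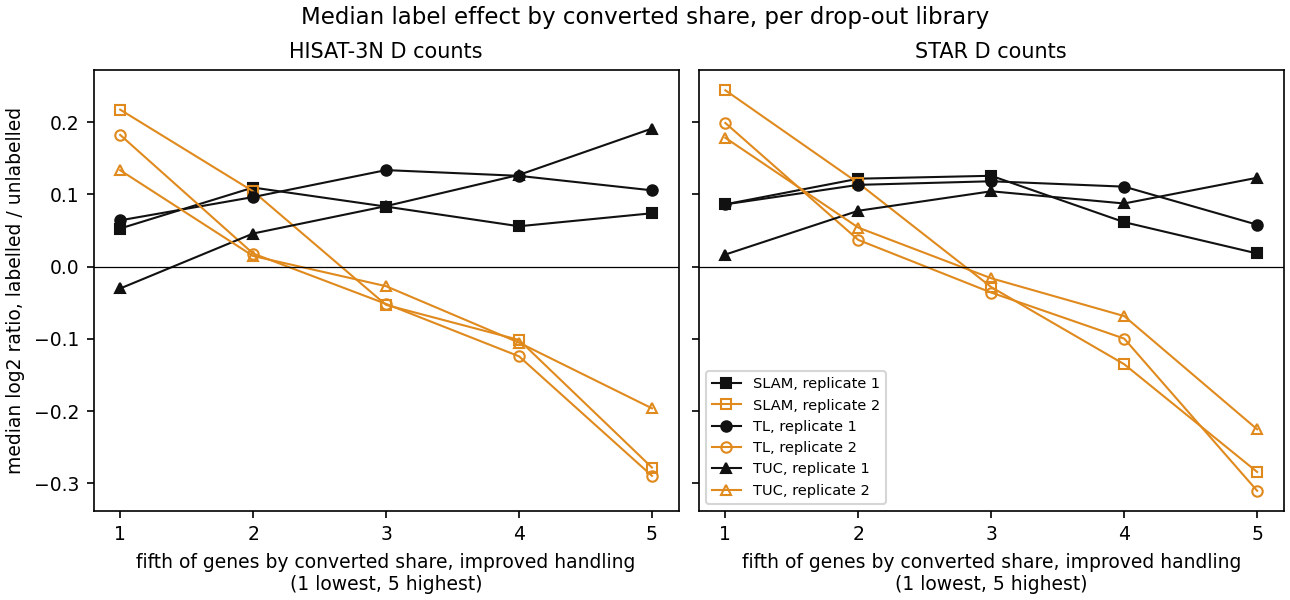
Median log2 ratio of labelled to unlabelled CPM (y axis) in quintiles of genes by converted share under improved handling (x axis), for each labelled drop-out library on HISAT-3N counts (left) and STAR counts (right). Lines for the 3 replicates 2 fall from left to right, by 0.33 to 0.50 on HISAT-3N counts, while the ends of the replicate 1 lines differ by 0.02 to 0.22 upwards on those counts.

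The fallen members went the other way between replicate numbers. Their median log2 ratio on HISAT-3N counts was -1.07 in replicates 1 and -0.84 in replicates 2, and the fall was larger in replicate 1 for 8 of 9 genes (9 of 9 on STAR counts). The risen members had medians of 0.71 and 0.87, with 3 of 8 larger in replicate 1. All these libraries took part in choosing the members, so these values are a description. The share of all genes with a larger change in replicate 1 was not computed.

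Labelled libraries with the same number deviated together across chemistries, so label terms were also fitted for each replicate number and averaged. With this replicate block, 249 genes passed in both alignments, 138 higher (1.54%) and 111 lower (1.24%), or 2.78% of the 8954 tested. All 17 members were among them, but the block refits the libraries that chose them, so this is a description. For ENSG00000109971 the edgeR adjusted p became 7.92e-11 on HISAT-3N counts, and for ENSG00000157514 it became 9.24e-13. The block takes the spread between the replicate numbers out of the error, so these p-values do not cover that spread. For ENSG00000157514 the mean log2 ratio on HISAT-3N counts was -1.46 in replicates 1 and -0.64 in replicates 2. If same-numbered libraries share a culture, which the labels do not say, the 6 labelled libraries stand for 2 cultures. The 3 unlabelled libraries, 1 per chemistry, could then stand for 1 culture. These p-values do not cover the spread between cultures. The p-values without the block would then not cover it in full either. Under improved handling, 199 of the 249 genes (79.9%) had the same sign in both alignments, against 50.0% of all genes tested, and 64 (25.7%) were called in the same direction against 4.47%. In the opposite direction 5 (2.01%) were called, against 2.03% of all genes tested. Of the 249 genes, 165 had at least 50 exonic HISAT-3N reads in every labelled improved-handling library, against 3971 of the 8954. These shares of calls are therefore not those of equally covered genes. The labels also do not say whether the 2 handlings drew on the same cultures. The part of shared cultures in this agreement was not tested. The median converted share under improved handling was 17.4% for the 111 blocked risen genes with enough reads and 43.0% for the 54 such fallen genes.

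Under improved handling the same comparison called 615 of 11927 genes in both alignments (5.16%), 335 higher (2.81%) and 280 lower (2.35%). On HISAT-3N counts it called 6.33% and on STAR counts 10.5% of the genes tested. The libraries of the handlings also differed otherwise. On HISAT-3N reads the share on chromosome 21 and 2 unplaced contigs, which hold ribosomal RNA genes, was 28.1% to 44.9% in drop-out and 6.49% to 15.3% in improved-handling libraries. The biological coefficient of variation, edgeR's measure of the spread between libraries, was 22.0% against 9.57% on HISAT-3N and 20.9% against 8.29% on STAR counts. Depth differed too. The median of exonic HISAT-3N reads per library was 1.02e+06 (unlabelled) and 1.14e+06 (labelled) under drop-out handling. Under improved handling it was 1.86e+06 and 1.57e+06. The part of these differences in the 17 against 615 calls was not tested. Of the 17 members, 13 had the same sign there in both alignments, and 6 were called in both, 2 higher and 4 lower. Whether the handlings shared cultures is not stated, and the part of this in the repeated calls was not tested. ENSG00000109971 rose again, by 0.73 ± 0.08 (SE; edgeR adjusted p = 3.70e-13, HISAT-3N). The other repeated rise was that of the gene on chromosome 22 (0.29 ± 0.09, edgeR adjusted p = 0.0259). The repeated falls were on chromosomes 2 (-0.51 ± 0.12), 17 (-0.50 ± 0.10), 6 (-0.48 ± 0.11) and 1 (-0.26 ± 0.08). ENSG00000149503 had a log2 change of 0.05 ± 0.10 (edgeR adjusted p = 0.866), ENSG00000113739 of -0.08 ± 0.07 (0.589) and ENSG00000157514 of 0.02 ± 0.07 (0.931).

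**Figure D4:**
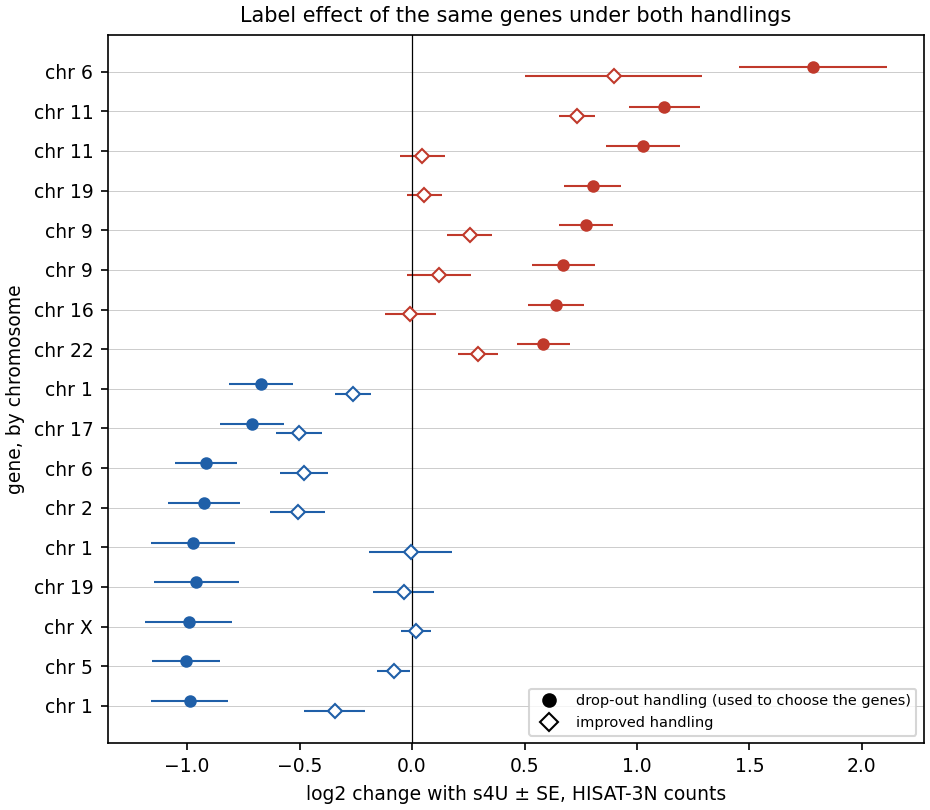
Log2 change with s4U ± SE on HISAT-3N counts (x axis) for the 17 genes (y axis, by chromosome) under drop-out handling (filled circles) and improved handling (open diamonds). Red genes rose and blue genes fell under drop-out handling, which chose them. Every diamond is nearer to 0 than its circle, and 6 of the 17 genes were called under improved handling in both alignments.

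All 17 changes were smaller under improved handling. Since the genes were chosen for a change under drop-out handling, their size there is not an independent measurement. The test of the difference itself, the interaction of label and handling over 18 libraries, called 3 of 11640 genes in both alignments (0.0258%), none of them a member. With the replicate block it called 80 genes in both alignments (0.687%), 7 of them members, 100 on HISAT-3N and 155 on STAR counts. Here too the spread between replicate numbers is left out of the error, and the doubt about shared cultures holds. On HISAT-3N counts 3 genes passed (0.0253%), 0 of them members with edgeR; 12 members had an unadjusted p under 0.05, against 8.56% of all genes, and DESeq2 called 39 genes, 5 of them members. The drop-out change that chose the members enters this test, so these counts are a description. On STAR counts 14 genes passed (0.116%), among them 3 members: ENSG00000149503 (difference of log2 changes, drop-out minus improved, 0.99 ± 0.18 SE; edgeR adjusted p = 0.0230), the risen gene on chromosome 19 (0.74 ± 0.15; 0.0443) and ENSG00000113739 (-0.88 ± 0.17; 0.0312).

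Of the 30 genes called on HISAT-3N counts, 13 were not called in both alignments, 12 of them higher. Of these 12, 10 had a converted share over 50% on HISAT-3N reads, against 7.63% of the tested genes with reads in all 6 labelled libraries, and 7 lay on chromosome 1, against 10.8%. For the 9 of the 12 with STAR reads in all 6 labelled libraries its median was 72.7% on HISAT-3N and 38.9% on STAR reads, and 1 of these 9 was over 50% on STAR reads, against 5.86% of the genes tested there. Their median log2 change was 1.67 on HISAT-3N counts. On STAR counts 6 of the 12 were tested, with a median of 0.36; 4 of these 6 had the same sign and 0 had an adjusted p under 0.1. Of the 36 genes called on STAR counts, 19 were not called in both alignments, 5 higher and 14 lower, and all 19 had the same sign on HISAT-3N counts. There, 4 of the 5 and 7 of the 14 had an adjusted p under 0.1. The 14 fallen ones had a median converted share of 53.3% on HISAT-3N and 51.1% on STAR reads.

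Reads marked intronic were fewer. With edgeR, 0 of 5468 genes passed in both alignments, with 232 at an unadjusted p under 0.05 in both and 0 called by DESeq2. Of the 13 members with enough intronic reads in both alignments, 10 had the sign of their exonic change in both. These reads are from the same libraries, and the share of all genes with such agreement was not computed. By edgeR or DESeq2, 0 members were called in either alignment. At an unadjusted edgeR p under 0.05 there were 2 of 13 (HISAT-3N) and 5 of 14 (STAR), against 7.33% and 7.96% of all genes. With the replicate block 15 genes passed in both alignments (0.274%), 1 of them a member. Over all genes edgeR called 0.0501% on HISAT-3N and 0.0328% on STAR counts. For ENSG00000109971 the intronic log2 change was 0.91 ± 0.63 (SE) on HISAT-3N counts, an error too wide to set it apart from 0 or from the exonic change.

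Genes with symbols could be read only in the authors' deposited table of rate constants of RNA degradation, of which those for drop-out handling are given. The time unit of the constants is not stated. In the counts, the median converted share of the 3971 genes was 14.5% under drop-out and 26.4% under improved handling. How far the handling enters these constants was not tested, and the deposited constants for improved handling are not given here. In the authors' deposited table, the median constant over all transcripts was 0.0430 (TimeLapse), 0.0354 (SLAM) and 0.0411 (TUC). Of a list of 53 immediate early genes, which respond within minutes to a stimulus, 5 were listed with TimeLapse, and these 5 were above the median in the authors' deposited table. These lists are described by their counts alone. MYC, a growth-promoting transcription factor, had 1.10, 1.13 and 1.05 there in the order TimeLapse, SLAM and TUC, and JUN, a subunit of AP-1, had 1.04, 1.09 and 1.02. Of another list of 30 ATF4 stress genes, 18 were listed with TimeLapse, and 13 of these were above the median in the authors' deposited table. DDIT4, an inhibitor of mTORC1 signalling, had the highest constants of that list, 1.17, 1.03 and 0.885, in the authors' deposited table. PHGDH had the lowest of that list with TimeLapse, 0.0137, in the authors' deposited table. Of 63 replication-dependent histone genes, 25 were listed with TimeLapse in the authors' deposited table, all above the median, with a median of their own of 0.135. Of 79 ribosomal protein genes, 70 were listed with TimeLapse, 1 of them above the median, with a median of 0.0125 in the authors' deposited table. Of 17 genes of glycolysis, 10 were listed and 0 were above it, with a median of 0.0111 in the authors' deposited table. Of 24 chaperone and heat shock genes, 13 were listed with TimeLapse and 6 of these were above the median in the authors' deposited table, among them HSPA8, a constitutive HSP70 chaperone, at 0.0885. Of 8 HEK 293T markers, 4 were listed with TimeLapse, 4 with SLAM and 2 with TUC in the authors' deposited table. Of 15 markers of other cell types, 0 were listed there. Only 2209 transcripts were listed with TimeLapse in the authors' deposited table, so these counts do not test cell identity.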

How the data were processed

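The authors deposited counts: the number of reads per library, aligner, settings code, contig, gene, intronic flag, T-to-C mismatch number and T number, per the labels. The other values of that deposited table are mismatches and T positions per read, as whole numbers. Per the submitters' processing notes, tools included cutadapt, HISAT2, STAR, HISAT, Picard, HTSeq and DESeq2, with GRCh38; versions and settings codes are not given in the sources used here. The authors also deposited rate constants per handling, and a log2 fold change of the constant between handlings with an adjusted p-value. That fold change and its p-value were not used here. Libraries were stranded total RNA (low-input kit), per the labels.

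Exonic reads were summed per gene, filtered with filterByExpr, scaled by TMM and tested in edgeR 4.0.16 (R 4.3.3), with chemistry as block and Benjamini-Hochberg adjustment over all genes. SE is the log2 change over the root of F. CPM used TMM library sizes, and log2 ratios a prior count of 1. DESeq2 1.42.0 was an alternative. Rows naming no gene were left out of tests (32.7% to 41.5% of HISAT-3N reads). The 10 samples of other chemistries were not analysed here. Members and gene lists were chosen with earlier results of these data known. The gene identifiers could not be paired with symbols, so the planned lists were not tested in the counts; 2540 of 2568 names of the rate table matched a RefSeq symbol or synonym (GRCh38.p14). The rule named all called genes; among these, identifiers are limited to the 2 largest changes each way with at least 100 mean reads. The 3 genes called by the interaction in both alignments fall outside the rule; they were named after their values were seen. Labelled replicates of a chemistry were not duplicates: chi-square per degree of freedom was 4.38 to 9.58. Labelled libraries with the same replicate number deviated together. Across genes, the difference of replicates 1 and 2 correlated between chemistries at 0.33 to 0.38 (HISAT-3N) and 0.36 to 0.43 (STAR). What same-numbered libraries share is not stated in the labels. Tests were also run on simulated data. Alternatives covered scaling, tool, filter, alignment, reads counted and each library left out.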

Additional observations from a re-analysis of the deposited data

Results flagged for a closer look

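Among 38 sets of 6 labelled libraries, 2 had a library far from the others; chance gives about 1 in 20. The risen gene on chromosome 19 had a log2 ratio of 1.11 in SLAM replicate 2 on HISAT-3N counts, above the other 5 libraries. A fallen gene on chromosome 1 had a log2 ratio of -1.47 in TL replicate 1 on HISAT-3N counts, below the other 5.

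The interaction of label and handling (drop-out minus improved, edgeR) was called for 3 members on STAR counts. The drop-out change that chose these genes enters the test, so their values are a description. The difference was 0.99 for ENSG00000149503 (adjusted p = 0.0230), 0.74 for the risen gene on chromosome 19 (adjusted p = 0.0443) and -0.88 for ENSG00000113739 (adjusted p = 0.0312). On HISAT-3N counts the edgeR adjusted p was 0.0636 for each of the 3, and none was called. With the replicate block, 7 of the 17 members were called on these counts, against 0.844% of all genes. The block leaves the spread between replicate numbers out of the error. Without the block, the interaction was called in both alignments for 3 further genes. ENSG00000044574 on chromosome 9 had a difference of 0.98 on HISAT-3N counts (edgeR adjusted p = 0.0121). Separate fits of each handling gave it log2 changes of 0.52 under drop-out and -0.40 under improved handling. ENSG00000203814 on chromosome 1 had a difference of 1.04 (edgeR adjusted p = 0.0121), with 0.55 and -0.44 in the separate fits. ENSG00000117450 on chromosome 1 had a difference of -1.15 (edgeR adjusted p = 0.0255), with 0.24 and 1.41 in the separate fits. The count of such genes fell to 0 when any unlabelled drop-out library was left out.

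On HISAT-3N counts the difference between the quintiles with the highest and lowest converted share was above 0 in all 3 labelled replicates 1 and below 0 in all 3 replicates 2. Replicates 2 minus replicates 1 gave -0.53 (exact two-sided sign-flip permutation p = 0.25, the smallest that 3 pairs allow).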

How the results depend on the processing

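The count of 17 genes called in both alignments was within 1.5 times with upper-quartile scaling, without mitochondrial, chromosome 21 and unplaced contig genes, and with STAR ML or VL. It was 11 with RLE factors (STAR alone 23), 38 with DESeq2 (HISAT-3N 55, STAR 61), 56 with no filter (70 and 90), 34 with a mean of at least 50 reads, 11 with all 18 libraries in the fit, 3 with exonic and intronic reads together (STAR 3), 36 with HISAT2 D and 37 at an adjusted p under 0.1. Leaving out each library in turn gave 0 to 25 in both, 9 to 37 on HISAT-3N and 0 to 45 on STAR counts. Without the unlabelled TL or SLAM library edgeR called 0 in both (342 and 292 at an unadjusted p under 0.05; DESeq2 5 and 3), and without the unlabelled TUC library 2; such a fit draws its contrast from 2 chemistries. Without TL, SLAM or TUC labelled replicate 1 it called 10, 12 and 10. With the replicate block the drop-out counts were 280, 509 and 249 (HISAT-3N, STAR, both). Chosen after seeing the data, labelled replicates 1 alone gave 858, 1150 and 753, and replicates 2 alone 490, 567 and 402; these fits assume that the spread between chemistries stands for that between cultures. Over 680 values of the 17 genes none changed sign, 491 kept the call and 189 lost it. These fits reuse the drop-out libraries that chose the genes, so the kept signs are a description. Under improved handling DESeq2 called 461, 823 and 389, and leaving out a library gave 308 to 770, 556 to 1279 and 242 to 608. The interaction gave 39, 41 and 29 with DESeq2, 100, 155 and 80 with the replicate block, and 0 to 26, 0 to 34 and 0 to 21 with a library left out. Intronic reads gave 1 on STAR counts with DESeq2, 30, 56 and 15 with the replicate block (added after seeing the data), and 1 to 13, 0 to 15 and 0 to 5 with a library left out. Under improved handling the block gave 793, 1298 and 631, within 1.5 times of the counts without it. Depth limits genes with few reads: the median gene tested had 37.3 exonic reads per library.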

Other observations

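Of the genes of the mitochondrial genome, 0 of 19 on HISAT-3N and 0 of 23 on STAR counts were called under drop-out handling with edgeR or DESeq2 when no replicate block was used. At an unadjusted edgeR p under 0.05 there were 1 of 19 and 5 of 23, against 9.22% and 10.3% of all genes. With the replicate block edgeR called 1 of 19 and 7 of 23, against 3.07% and 5.32% of all genes, and 1 in both alignments (log2 changes of -0.31 and -0.35; edgeR adjusted p = 0.00382 and 0.000289). Over the 19 mitochondrial genes tested in both alignments, the median log2 change with s4U was -0.12 on HISAT-3N and -0.18 on STAR counts. On HISAT-3N counts all 19 lay between -0.65 and -0.06. Under improved handling, with other labelled and unlabelled libraries, the median of these 19 was 0.27 and 0.25. There 13 and 10 of the 19 were called, against 6.33% and 10.5% of all genes tested on HISAT-3N and STAR counts.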
